A study of Mus musculus with 10 samples.

Results

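Macrophages are phagocytes that settle in embryonic organs from the yolk sac and fetal liver before birth, and in a young tooth germ they clear dying cells and debris. They carry the receptor for colony-stimulating factor 1 (CSF1), on which their survival depends, together with Fc receptors, a fractalkine receptor, scavenger receptors and the 3 chains of complement component C1q. The transcription factor PU.1, encoded by Spi1, turns on many of these genes. Here 10 genes that mark macrophages were followed in cultured mouse molars: C1qa, C1qb, C1qc, Csf1r, Cx3cr1, Cd68, Adgre1, Fcgr3, Tyrobp and Mrc1. The genes were found in the count table by their symbol in GENCODE mouse release 21, which gave a single row for each of the 10 among 18381 genes.

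The molars came from wild type C57BL/6JOlaHsd embryos at embryonic day 14 and were first lower molars. All were kept in hanging drops for 6 h, and the treated ones were given 750 ng per ml of IGF1, an insulin-like growth factor, while the control ones were given its carrier, phosphate-buffered saline with bovine serum albumin. From each of 5 embryos (numbered 1, 2, 3, 4 and 6) a tooth went to each treatment, so that 5 IGF1 and 5 control libraries were compared within embryos, each library from a single tooth. As whole tooth germs were sequenced, fewer macrophages and less RNA of a gene in each macrophage cannot be told apart.

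Depth was 2845773 to 8403151 counts for a control library and 3456634 to 8763113 counts for an IGF1 library, with the lowest totals in both teeth of embryo 1. Levels are given as CPM (counts scaled to a common library size) with TMM, edgeR's correction for library composition. A single count was worth 0.344 CPM in the control tooth of embryo 1 and from 0.115 to 0.288 CPM in the other libraries. The labelled tissue carried the markers of both of its layers. The 8 epithelial markers summed to between 1399 and 2279 CPM over the libraries, and the 8 mesenchymal markers to between 3951 and 6207 CPM.

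Macrophage transcripts were scarce in these tooth germs. The 10 genes together had from 254 to 649 counts in a library, or 62.8 to 94.8 CPM. The most counted was Csf1r, with 1485 counts over all libraries, and the fewest belonged to Fcgr3 (ENSMUSG00000059498, chromosome 1, 171051174 to 171064935), with 68. Pan-leukocyte genes were present beside them, as Ptprc, which encodes CD45, had between 23 and 99 counts. Other blood cells differed in how far they could be seen. Neutrophil markers summed to at most 0.714 CPM and lymphocyte markers to at most 2.13 CPM in any library, with S100a8 at 0 in 3 of 10 libraries and Mpo at 0 in 5. The mast cell genes Cpa3 and Cma1 had 4 to 26 and 1 to 22 counts in a library, and the megakaryocyte gene Itga2b had 14 to 38. These were as many as for the rarer macrophage markers or more, but both lists were uneven. Only 4 of 7 mast cell and 4 of 5 megakaryocyte genes had a row. Tpsb2 had at most 3 counts and was at 0 in 3 of 10 libraries. Ppbp had at most 10 (0 in 4 libraries) and Gp1bb at most 18 (0 in 3). Kit had 134 to 384 counts and Itgb3 105 to 291. Red cell markers, chiefly globins, summed to between 608 and 1431 CPM.

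The 3 C1q genes lie side by side on the minus strand of chromosome 4, within 18675 bases from 136880129 to 136898803 (GRCm38). RefSeq promoter windows were matched for 6 of the 10 genes, and 4 of them are shown, cut where an annotated exon begins (those of Cx3cr1 and Fcgr3 had fewer than 60 bases before an exon), to let the sequence in front of these genes be read beside their values. The capitals mark the letters GAGGAA (reverse complement TTCCTC) and AGGAAGT (reverse complement ACTTCCT), which hold the purine-rich core that PU.1 is known to bind, and the 2 motifs can overlap. Both were searched on both strands.
C1qb, chr4:136886201-136886450, minus strand: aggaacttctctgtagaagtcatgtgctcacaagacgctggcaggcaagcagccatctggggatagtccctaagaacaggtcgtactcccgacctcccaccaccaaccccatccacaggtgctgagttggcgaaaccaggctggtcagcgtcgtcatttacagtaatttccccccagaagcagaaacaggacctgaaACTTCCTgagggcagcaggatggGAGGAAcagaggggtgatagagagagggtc
C1qc, chr4:136893066-136893164, minus strand: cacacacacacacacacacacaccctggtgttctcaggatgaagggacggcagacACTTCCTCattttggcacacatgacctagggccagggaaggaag
Cd68, chr11:69666171-69666420, minus strand: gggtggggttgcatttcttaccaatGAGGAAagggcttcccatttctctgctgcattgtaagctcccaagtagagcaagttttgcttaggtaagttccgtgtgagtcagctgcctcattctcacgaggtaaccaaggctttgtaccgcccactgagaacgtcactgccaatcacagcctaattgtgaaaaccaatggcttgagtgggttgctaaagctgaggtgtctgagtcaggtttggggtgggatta
Mrc1, chr2:14229164-14229391, plus strand: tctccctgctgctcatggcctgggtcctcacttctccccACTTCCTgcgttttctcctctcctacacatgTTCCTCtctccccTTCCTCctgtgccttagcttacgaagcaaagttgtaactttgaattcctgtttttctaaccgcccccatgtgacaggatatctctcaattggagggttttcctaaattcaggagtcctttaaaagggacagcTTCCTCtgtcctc

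In C1qb the GAGGAA letters begin 30 bases before the RefSeq start and the ACTTCCT letters 53 bases before it. The C1qc stretch holds both motifs overlapping in ACTTCCTC, 195 bases before the start. Mrc1 holds TTCCTC 3 times and ACTTCCT once, and Cd68 holds GAGGAA once, 225 bases before its start. In the whole windows of 250 bases, GAGGAA was found in 5 of the 6 matched genes, not in Cx3cr1, and AGGAAGT in 3 of 6. Of the other letters searched on both strands, TGACTCA was found in 1 of 6 (Cd68, against 4.46% of all windows), GGGCGG in 3 of 6 (32.7%) and TATAAA in 0 of 6 (12.4%). Of 32851 RefSeq windows of 250 bases, 23.3% hold GAGGAA on either strand and 7.69% hold AGGAAGT. A match of letters is a description of the window and not evidence of binding.

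Levels between genes were compared per kb of merged exons. Tyrobp, the signalling adaptor that pairs with receptors such as TREM2, had the highest median level, 7.74 CPM per kb over the 10 libraries (range 5.33 to 8.93). It was followed by C1qb at 4.77 (3.06 to 6.62), Cd68 at 4.69 (3.60 to 7.10), Csf1r at 4.06 (1.98 to 5.97) and Adgre1 at 3.67 (2.58 to 5.25). A lower step held Mrc1 at 1.80 CPM per kb (1.44 to 3.23), Cx3cr1 at 1.60 (0.996 to 2.24), C1qc at 1.54 (1.17 to 2.54) and C1qa at 1.23 (0.412 to 3.32). Fcgr3 was lowest, at 0.536 CPM per kb (0.198 to 1.06). The ranges of all neighbours in this order overlapped, so that no gene stood clear of the next by more than the spread between libraries. For comparison, the endothelial cadherin Cdh5 had a median of 33.0 CPM per kb and the secreted lysozyme Lyz2, another myeloid gene, 22.3.

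**Figure D1:**
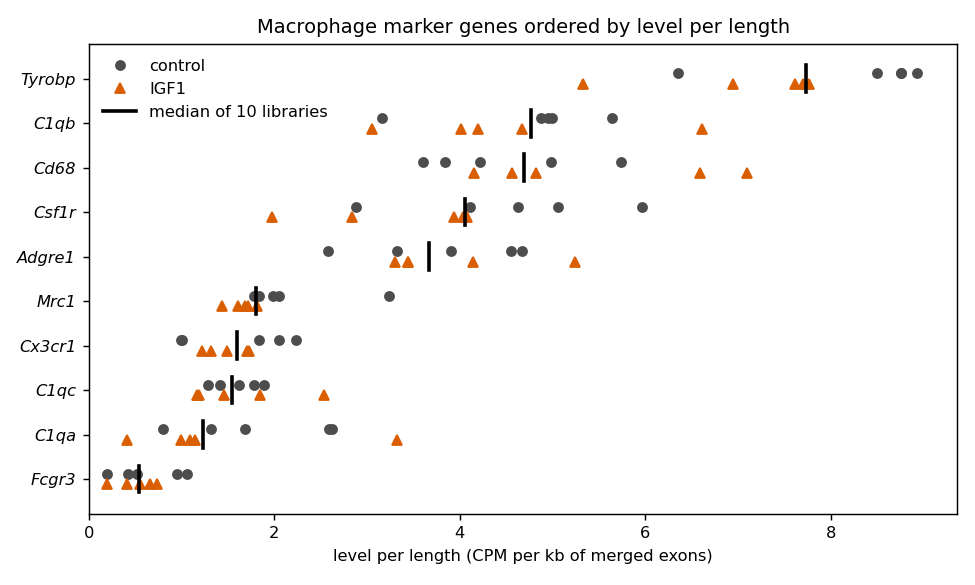
Level of each macrophage marker gene in CPM per kb of merged exons (x axis), in control (circles) and IGF1 (triangles) libraries, with the median of all 10 libraries as a bar. Tyrobp has the highest median, 7.74 CPM per kb, and Fcgr3 the lowest, 0.536, and control and IGF1 points overlap in every gene.

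The central comparison asked how IGF1 altered each gene within an embryo. The expression filter kept 8 of the 10 genes, all but C1qa and Fcgr3, among 14504 genes tested. Csf1r fell with IGF1 and no other tested marker passed the threshold, which was a Benjamini-Hochberg adjusted p under 0.05 over all genes tested, by the quasi-likelihood test of edgeR with the embryo as a block. This is 1 of 8, or 12.5%, beside 11.5% of all genes tested (4.76% lower and 6.72% higher with IGF1), and a share this near the background is not a result about the markers as a group. The median log2 fold change of the 8 was -0.11, against -0.0038 for all genes tested. Point estimates were below 0 for 6 genes and above 0 for 2, and in each of the 10 genes the control and IGF1 levels overlapped.

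Csf1r (ENSMUSG00000024621, chromosome 18, 61100598 to 61132149) encodes the receptor for CSF1 and interleukin 34, and is carried by macrophages and by osteoclasts, their relatives in bone. In the control teeth of embryos 1, 2, 3, 4 and 6 its level was 29.2, 26.7, 23.7, 34.5 and 16.7 CPM. In the IGF1 teeth of the same embryos it was 23.3, 23.5, 16.4, 22.7 and 11.4 CPM. Each IGF1 tooth was below its own partner, while embryo 6 was lowest in both groups and the groups overlapped. The fold change was -0.44 on the log2 scale (SE 0.11, 95% interval -0.67 to -0.20, adjusted p = 0.0234), so that the level fell by 26.2%. The differences within embryos ran from -0.59 in embryo 4 to -0.18 in embryo 2.

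That call rested on the pairing and on most of the embryos. Without the replicate block the log2 fold change was -0.43 with an adjusted p of 0.303, DESeq2's Wald test gave 0.0640, and leaving out embryo 3, 4 or 6 gave 0.05002, 0.102 and 0.0669, each above 0.05. It stayed called in 7 of 12 alternatives and was below 0 in all 12. An exon of Csf1r overlaps one of Hmgxb3 on the opposite strand, and strand use in the counting is not given in the sources used here. Hmgxb3 itself had 65.3 to 84.5 CPM in control and 63.1 to 83.2 CPM in IGF1 teeth, with a log2 fold change of 0.0101 (SE 0.0768, adjusted p = 0.956).

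**Figure D2:**
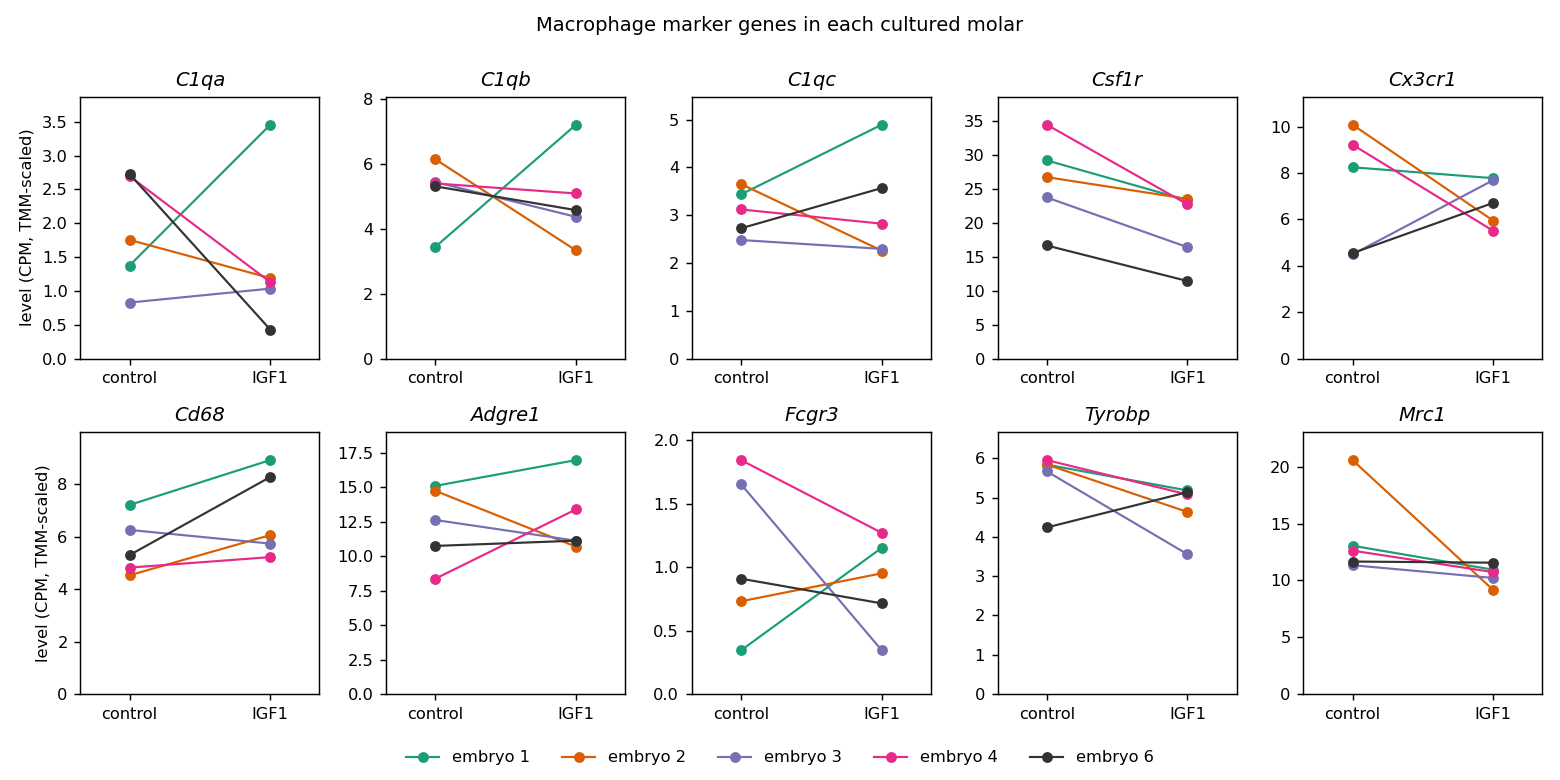
Level of each of the 10 genes in CPM (y axis, from 0, scaled per gene) in the control and IGF1 tooth of each embryo, joined by a line. The 5 lines of Csf1r all descend, those of Mrc1 descend with embryo 2 steepest, and those of the other genes cross.

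Mrc1 (ENSMUSG00000026712, chromosome 2, 14229392 to 14332057) encodes the mannose receptor CD206, a scavenger receptor of tissue macrophages that lymphatic endothelium carries too. Control teeth of embryos 1, 2, 3, 4 and 6 had 13.1, 20.6, 11.3, 12.6 and 11.7 CPM, and IGF1 teeth 10.9, 9.15, 10.2, 10.7 and 11.6 CPM. All 5 IGF1 teeth were below their partners, but the log2 differences ran from -0.0119 in embryo 6 to -1.14 in embryo 2, whose control tooth was the highest of all. The log2 fold change of -0.38 (SE 0.18, 95% interval -0.77 to 0.0161) did not pass the threshold (adjusted p = 0.209), and without embryo 2 it was -0.16. Both Csf1r and Mrc1 thus had all embryos on the same side of 0, and these were the only members to do so.

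Tyrobp (ENSMUSG00000030579, chromosome 7, 30413760 to 30417585) was the steadiest member. Control teeth had 5.84, 5.84, 5.67, 5.96 and 4.24 CPM and IGF1 teeth 5.18, 4.64, 3.56, 5.08 and 5.14 CPM in the same order of embryos. Only embryo 6 was higher with IGF1. The log2 fold change was -0.24 (SE 0.21, 95% interval -0.70 to 0.23, adjusted p = 0.531). Its coefficient of variation over the 10 libraries, 15.3%, was no larger than the 17.3% that counting error gives at its mean count.

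The chains of C1q, which joins with the proteases C1r and C1s to start the classical complement pathway, gave no common direction over embryos. C1qb (ENSMUSG00000036905, 136880129 to 136886187) had 3.44, 6.14, 5.43, 5.39 and 5.30 CPM in control and 7.20, 3.33, 4.36, 5.08 and 4.57 CPM in IGF1 teeth. It was higher with IGF1 in embryo 1 and lower in the other 4 embryos, with a log2 fold change of -0.16 (SE 0.26, 95% interval -0.73 to 0.41, adjusted p = 0.745). C1qc (ENSMUSG00000036896, 136889804 to 136893065) had 3.44, 3.65, 2.48, 3.12 and 2.73 CPM against 4.90, 2.26, 2.30, 2.82 and 3.57 CPM, with a log2 fold change of -0.0325 (SE 0.27, 95% interval -0.63 to 0.56, adjusted p = 0.960). Embryos 1 and 6 were the ones with more C1qc after IGF1. C1qa (ENSMUSG00000036887, 136895917 to 136898803) was too rare for the test. Its counts were 4, 12, 7, 19 and 18 in control and 12, 10, 9, 8 and 3 in IGF1 teeth. The extremes were the IGF1 tooth of embryo 6, where 3 counts allow an exact Poisson 95% interval of 0.619 to 8.77 counts, and the control tooth of embryo 4, where 19 counts allow 11.4 to 29.7. These intervals cover counting error only. The within-embryo differences of C1qa had no common sign (exact sign-flip permutation test, two-sided, p = 0.5, n = 5 embryos, where 0.0625 is the smallest p possible).

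Summed, the 3 chains had 8.25, 11.5, 8.74, 11.2 and 10.8 CPM in control and 15.6, 6.78, 7.69, 9.03 and 8.57 CPM in IGF1 teeth of embryos 1, 2, 3, 4 and 6. Embryo 1, the embryo with the least counts, stood on the other side of 0 from the rest, at 0.92 on the log2 scale, while the others ran from -0.77 to -0.18. C1qb had a log2 fold change of -0.37 without embryo 1 and of 0.0286 without embryo 2.

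Cx3cr1 (ENSMUSG00000052336, chromosome 9, 119901616 to 120069879), the receptor for fractalkine, split the embryos. Its control levels were 8.25, 10.1, 4.49, 9.22 and 4.54 CPM, and its IGF1 levels were 7.78, 5.94, 7.69, 5.50 and 6.71 CPM. The log2 differences were -0.73 and -0.71 in embryos 2 and 4 but 0.74 and 0.53 in embryos 3 and 6. The control teeth fell into a lower pair and a higher trio, and the IGF1 teeth lay between them. The log2 fold change was -0.0691 (SE 0.26, 95% interval -0.64 to 0.50, adjusted p = 0.905).

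Adgre1 (ENSMUSG00000004730, chromosome 17, 57358691 to 57483527) encodes F4/80, the surface protein by which mouse macrophages are usually stained. Control teeth had 15.1, 14.8, 12.6, 8.37 and 10.8 CPM and IGF1 teeth 17.0, 10.7, 11.1, 13.4 and 11.1 CPM. The difference changed sign between embryos, and the log2 fold change was 0.0341 (SE 0.17, 95% interval -0.34 to 0.41, adjusted p = 0.928). Among the tested members this was the narrowest interval after Csf1r.

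Cd68 (ENSMUSG00000018774, chromosome 11, 69664213 to 69666153) encodes a heavily glycosylated protein of lysosomes and endosomes that phagocytes hold in large amounts. Its levels were 7.21, 4.53, 6.26, 4.82 and 5.30 CPM in control and 8.93, 6.06, 5.74, 5.22 and 8.28 CPM in IGF1 teeth. It was higher with IGF1 in 4 of 5 embryos, the opposite side from Csf1r. With a log2 fold change of 0.27 (SE 0.19, 95% interval -0.16 to 0.69, adjusted p = 0.421) it did not pass the threshold.

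Fcgr3 encodes the activating low-affinity receptor for immunoglobulin G. It had 1, 5, 14, 13 and 6 counts in control and 4, 8, 3, 9 and 5 counts in IGF1 teeth, too few for the test. The within-embryo differences ran from -1.60 to 1.17 on the log2 scale (exact sign-flip permutation test, two-sided, p = 0.688, n = 5 embryos, smallest possible 0.0625). This test cannot pass 0.05 with 5 embryos at any depth, so it does not say whether the gene changed. Its paralog Fcgr2b, the inhibitory receptor, is close to it in sequence, and how salmon split reads between them was not tested. Fcgr2b had more counts, from 46 to 78 in a library.

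**Figure D3:**
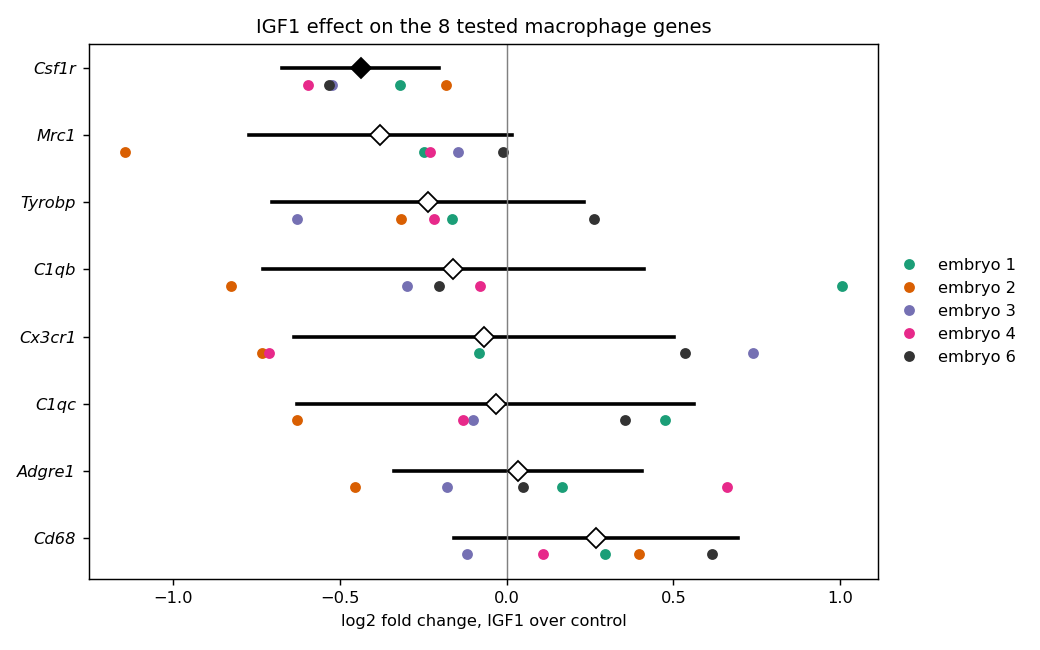
The log2 fold change of the 8 tested genes (diamonds, filled where the adjusted p was under 0.05) with its 95% interval (bars), and the difference in each embryo (dots). The Csf1r interval runs from -0.67 to -0.20, and the intervals of the other 7 genes include 0.

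Over all 10 genes, the summed level was 87.3, 94.8, 74.5, 88.5 and 64.8 CPM in the control and 89.8, 67.8, 62.8, 73.0 and 63.5 CPM in the IGF1 teeth of embryos 1, 2, 3, 4 and 6. The groups overlapped through embryos 1 and 6, whose 2 teeth had nearly equal sums. The mean log2 ratio within embryos was -0.20 (SD 0.21, n = 5), from -0.48 in embryo 2 to 0.0422 in embryo 1. Leaving Csf1r out brought the mean to -0.11 (SD 0.32), with 3 embryos below 0 and 2 above. Csf1r made up between 18.0% and 38.9% of the sum. Against the other 9 genes together, its ratio was lower with IGF1 in embryos 1, 3, 4 and 6 (log2 differences of -0.66 to -0.40) and higher in embryo 2 (0.44), where Mrc1 and the C1q chains were lower by more than Csf1r was.

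**Figure D4:**
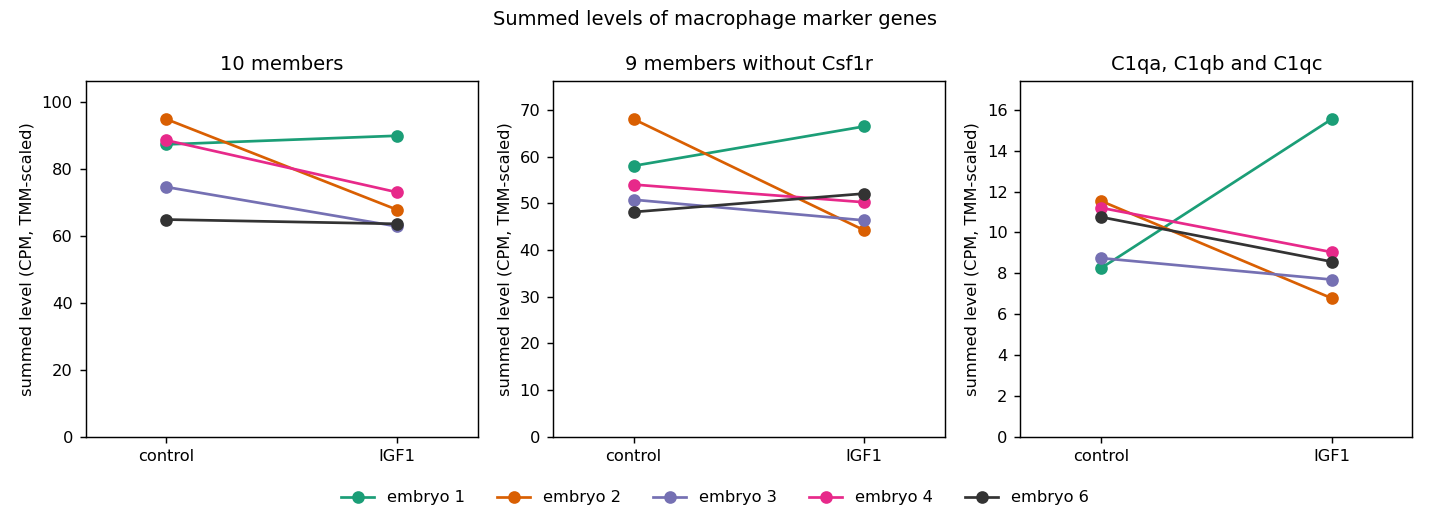
Summed level in CPM (y axis, from 0) of all 10 genes, of the 9 without Csf1r, and of the 3 C1q chains, in the control and IGF1 tooth of each embryo, joined by a line. Embryo 1 moves against embryos 2, 3 and 4 in each panel, and its IGF1 tooth has the highest C1q sum, 15.6 CPM.

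The spread between libraries, which holds both treatments, was set against counting error for each member. The variance of the counts over the 10 libraries, divided by the variance that counting alone gives, was 0.893 for Tyrobp, 1.13 for C1qc and 1.44 for C1qb, while it was 5.80 for Mrc1 and 13.4 for Csf1r. The others lay between 1.67 and 3.70. This ratio also depends on the count of a gene, so it does not rank the members by how much they varied. The coefficient of variation was 25.7% for C1qc, 25.9% for Mrc1 and 29.3% for Csf1r, where counting alone gives 22.5%, 11.2% and 8.21%. Among the 8 tested members, 24 of 28 pairs had a positive Pearson correlation of log2 CPM over the 10 libraries (median r 0.298, from -0.391 to 0.608), which is a description of libraries that share embryos and depth. The highest pairs were Csf1r with Tyrobp (0.608) and Adgre1 with C1qc (0.572). The genes outside the list most like the members' mean standardized level were Fam189a1, 1810058I24Rik, Olfr715b, Fbxo27, Ehd2, Pcdhgc5, Ubxn11, ENSMUSG00000116080, Pip4k2a and Abcc10, with r from 0.846 to 0.882 over 10 libraries. None of these 10 is in the macrophage or leukocyte lists examined here. Of the genes in those lists other than the members themselves, Cx3cl1 came highest (r = 0.747). It stood at place 85 of 14504, in an order that counts the members. The member C1qc was at place 3 (r = 0.878), but its own level is part of the mean it was compared with.

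The factors that feed macrophages were next examined. Csf1, the main ligand of Csf1r, had 98 to 264 counts in control and 135 to 310 in IGF1 teeth, with a log2 fold change of 0.0957 (SE 0.10, 95% interval -0.13 to 0.32, adjusted p = 0.602). The other ligand, Il34, had 2 to 6 counts in every library. Cx3cl1, the fractalkine ligand of Cx3cr1, was at -0.0249 (SE 0.15, adjusted p = 0.943). Of the 4 genes tested in this list of 7, Csf2rb, the shared beta chain of the receptors for granulocyte-macrophage colony-stimulating factor and interleukins 3 and 5, fell. Its levels were 6.87, 7.01, 5.55, 7.09 and 5.15 CPM in control and 3.74, 2.62, 3.67, 4.09 and 3.14 CPM in IGF1 teeth, so that the groups did not overlap (log2 fold change -0.87, SE 0.22, adjusted p = 0.0253). It stayed called in 7 of 12 alternatives.

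The transcription factor PU.1 gene Spi1 had a log2 fold change of -0.29 (SE 0.26, adjusted p = 0.523). In the list of 12 myeloid transcription factors, 11 were tested, 1 rose and 1 fell. The one that fell was Runx1, a hematopoietic factor that dental tissues express too, with 113 to 159 CPM in control and 85.8 to 117 CPM in IGF1 teeth (log2 fold change -0.41, SE 0.0977, adjusted p = 0.0206). The Runx1 call held in 9 of 12 alternatives and was lost without embryo 1, 4 or 6. Bhlhe41, a repressor of the circadian clock, rose from between 3.40 and 4.12 CPM to between 4.28 and 13.8 CPM (log2 fold change 0.87, SE 0.25, adjusted p = 0.0456), but it stayed called in only 4 of 12 alternatives.

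Partners of Fcgr3 and Tyrobp in signalling gave no calls. Of 11 tested genes for Fc receptors and signalling through their motifs, 0 passed the threshold by edgeR, DESeq2 or limma-voom, and 1 had an unadjusted p under 0.05 by edgeR, while 10 of 11 lay below 0, with a median of -0.23. Fcer1g, the common gamma chain, was lower in 5 of 5 embryos (log2 fold change -0.36, SE 0.19, adjusted p = 0.262). The complement list had 13 tested genes, and 2 fell, both inhibitors, while 6 of 13 lay below 0 and the median was 0.00967. Serping1, the C1 inhibitor, had 8.33 to 12.6 CPM in control and 3.44 to 8.35 CPM in IGF1 teeth (log2 fold change -0.91, SE 0.25, adjusted p = 0.0373), and its call held in 8 of 12 alternatives. Cd55, which speeds the decay of complement convertases, had 12.4 to 30.5 CPM and 7.14 to 12.97 CPM (log2 fold change -0.80, SE 0.15, adjusted p = 0.00709).

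Genes of lysosomes and of the uptake of dead cells had the most calls in the macrophage biology lists, with 5 of 16 lower and 0 higher (4.76% and 6.72% of all genes tested) and a median of -0.20. Abca1, which exports cholesterol, had 235, 230, 223, 259 and 224 CPM in control and 122, 183, 135, 124 and 105 CPM in IGF1 teeth, so that all IGF1 teeth lay below all control teeth (log2 fold change -0.83, SE 0.11, adjusted p = 0.000752). Lgmn, the lysosomal protease legumain, changed by -0.56 (SE 0.0840, adjusted p = 0.00193), Grn, the lysosomal protein progranulin, by -0.47 (SE 0.0778, adjusted p = 0.00320), Apoe, a lipid carrier, by -0.42 (SE 0.0911, adjusted p = 0.0141) and Axl, a receptor for dying cells, by -0.29 (SE 0.0715, adjusted p = 0.0264). Each was lower in 5 of 5 embryos, and the Axl call held in 7 of 12 alternatives. Many cell types express these genes, and in control teeth Axl, at 151 to 181 CPM, lay above each of the 10 macrophage markers.

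Other markers of resident macrophages had 1 call in 10 tested genes, with 8 of 10 below 0 and a median of -0.27. Mertk, a receptor by which phagocytes take up dying cells, changed by -0.35 (SE 0.10, adjusted p = 0.0467) with 4 of 5 embryos lower, and stayed called in 4 of 12 alternatives. Ctss, a cathepsin of antigen-presenting cells, was lower in 5 of 5 embryos without passing the threshold (log2 fold change -0.58, SE 0.17, adjusted p = 0.0526), and Lyz2 was at -0.33 (SE 0.11, adjusted p = 0.0873). On the other side of 0 were Siglec1, a sialic acid receptor of macrophages (log2 fold change 0.70, SE 0.34, adjusted p = 0.223), and Cd14, a co-receptor for lipopolysaccharide (log2 fold change 0.26, SE 0.29, adjusted p = 0.625). Lyve1 and Folr2, which mark a resident subset, had at most 7 and 4 counts in a library and were at 0 in 2 and 3 of 10 libraries. The microglia-like list had 0 calls in 3 tested genes by the same 3 tools, with 1 at an unadjusted p under 0.05 by edgeR, and its defining gene P2ry12 had at most 11 counts. Pan-leukocyte genes had 0 calls in 9 tested by each of these tools, with 3 at an unadjusted p under 0.05 by edgeR, 8 below 0 and a median of -0.23. Their sum was lower with IGF1 in 5 of 5 embryos (108 to 133 CPM in control and 90.2 to 114 CPM in IGF1 teeth). Its largest part was Lcp1, at a median of 61.1 CPM, which was lower in 5 of 5 embryos without passing the threshold. Coro1a, on the other side of 0 (log2 fold change 0.13), was lower in 2 of 5 embryos. Ptprc was at -0.42 (SE 0.18, adjusted p = 0.163). Of 18 activation genes 5 could be tested, and only Tgfb1 fell (log2 fold change -0.49, SE 0.13, adjusted p = 0.0356), a growth factor gene that most cells express, and its call held in 7 of 12 alternatives. The cytokine gene Tnf was lower in 5 of 5 embryos without passing the threshold (log2 fold change -0.91, SE 0.30, adjusted p = 0.0766). The inflammatory genes Il1b and Cd86 had at most 51 and 7 counts in a library.

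**Figure D5:**
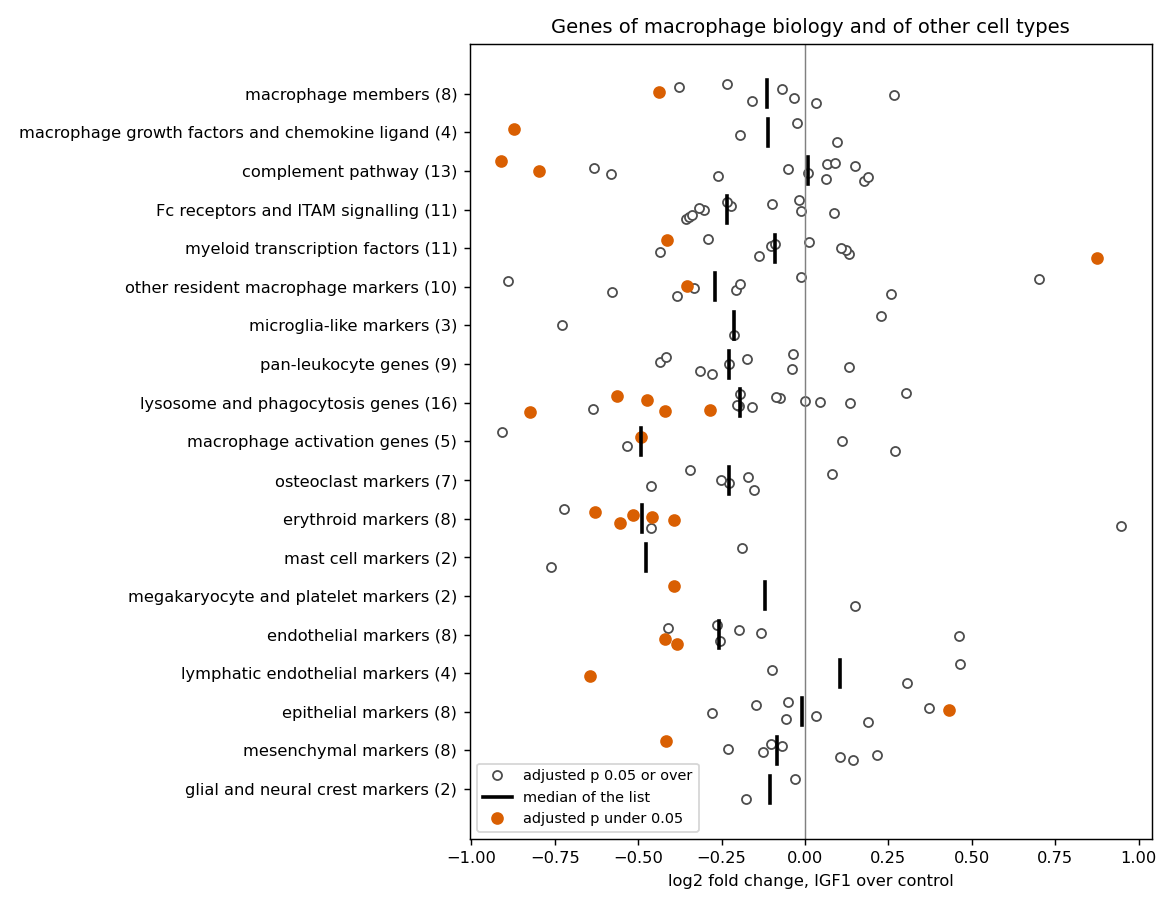
The log2 fold change (x axis) of each tested gene in the macrophage lists and in the lists for other cell types (rows, number tested in brackets), with filled points where the adjusted p was under 0.05 and a bar at the median of each list. Most calls lie below 0, and the erythroid row holds 5 of 8.

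Some markers of other cells in the tooth also changed with IGF1, and their part in the change of Csf1r was not tested. Of 8 tested red cell genes 5 fell, all globins, beside 4.76% lower of all genes tested. They ran from -0.63 for Hbb-y (SE 0.0827, adjusted p = 0.000886) to -0.39 for Hba-a2 (SE 0.11, adjusted p = 0.0463), where the Hba-a2 call held in 6 of 12 alternatives. Without the replicate block only 1 of the 8 genes was called, Hbb-y, with 6 at an unadjusted p under 0.05 (edgeR). Epor, the erythropoietin receptor in the same list, was higher in 5 of 5 embryos without passing the threshold (log2 fold change 0.95, SE 0.35, adjusted p = 0.111). The sum of the 10 red cell genes was lower in 5 of 5 embryos (853 to 1431 CPM in control and 608 to 1118 CPM in IGF1 teeth). Of 8 endothelial genes 2 fell, Cdh5 by 0.38 on the log2 scale (SE 0.0889, adjusted p = 0.0188) and Esam by 0.42 (SE 0.12, adjusted p = 0.0406), where the Esam call held in 5 of 12 alternatives and 0 of the 8 genes were called without the replicate block (4 at an unadjusted p under 0.05, edgeR), with a list median of -0.26 and a sum of 413 to 472 CPM in control and 336 to 441 CPM in IGF1 teeth. Flt1, a receptor for vascular endothelial growth factor in the same list, lay on the other side of 0 in 5 of 5 embryos without passing the threshold (log2 fold change 0.46, SE 0.14, adjusted p = 0.0506). The platelet gene Itgb3, which other cells carry too, changed by -0.39 (SE 0.11, adjusted p = 0.0377), and stayed called in 6 of 12 alternatives, not with DESeq2. The other tested gene of that list, Itga2b, was at 0.15 (SE 0.28, adjusted p = 0.779) and lower in 1 of 5 embryos. Pdpn, a gene of lymphatic endothelium, epithelium and mesenchyme, changed by -0.64 (SE 0.11, adjusted p = 0.00375) and was 1 of 4 tested in the lymphatic list, where the median was 0.10. The other 3 did not pass the threshold, and Flt4 (log2 fold change 0.31, SE 0.0961, adjusted p = 0.0662) and Reln (0.46, SE 0.15, adjusted p = 0.0725) were higher with IGF1 in 5 of 5 embryos, while Prox1 was at -0.0984 (SE 0.17, adjusted p = 0.758).

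Osteoclast genes, which share Csf1r with macrophages, were present at a summed 110 to 183 CPM in control and 78.8 to 219 CPM in IGF1 teeth, and 0 of 7 tested passed the threshold by edgeR, DESeq2 or limma-voom, with 0 at an unadjusted p under 0.05. Of these 7 genes 6 lay below 0, with a median of -0.23, and the sum of the list was lower in 3 of 5 embryos. Mast cell genes had 0 calls in 2 tested and glial genes 0 in 2 by the same 3 tools, with 1 and 0 at an unadjusted p under 0.05 by edgeR. The mast cell sum was lower with IGF1 in 5 of 5 embryos (48.3 to 57.3 CPM in control and 42.1 to 45.3 CPM in IGF1 teeth). Kit, at a median of 43.5 CPM, was its largest part (log2 fold change -0.19, SE 0.0856, adjusted p = 0.187). The glial sum was lower in 3 of 5 embryos. Of the tooth layers, the epithelial list had 1 gene higher of 8, the keratin Krt5 (log2 fold change 0.43, SE 0.0917, adjusted p = 0.0126), and the mesenchymal list 1 lower of 8, Vim (log2 fold change -0.42, SE 0.0836, adjusted p = 0.00949). Vim encodes vimentin, which macrophages, endothelium and mesenchyme all hold. Over all 20 lists 131 genes were tested, of which 2 rose and 21 fell, beside 6.72% higher and 4.76% lower of all 14504 genes tested. Abca1, Lgmn, Hbb-y and Pdpn stayed called in 12 of 12 alternatives, and the other 19 lost their call in at least 1. Without the replicate block 7 of the 23 stayed called. Without embryo 1, 2, 3, 4 or 6 the number was 17, 15, 15, 12 and 14, with Esam lost each time.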

How the data were processed

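RNA-seq counts from 10 libraries, each of a single tooth, were analysed. The values deposited by the authors are estimated counts, which Salmon gave for each gene and which were not normalized. The submitters' processing notes name FastQC 0.11.8, Trimmomatic 0.39, Salmon 0.99.0, DESeq2 and the build GRCm38. The transcript set, strand use and low-count filter are not given in the sources used here. All values were whole numbers, and each of the 18381 genes had at least 10 counts in all. Symbols, positions and exon lengths were taken from GENCODE mouse release 21 (GRCm38), in which 18287 identifiers were found, and promoter windows from RefSeq (GRCm38.p6).

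Counts were tested with edgeR 4.0.16 (R 4.3.3): filterByExpr, TMM, the quasi-likelihood test with embryo as a block, and Benjamini-Hochberg adjustment over 14504 genes with a threshold of 0.05. The SE was derived from the F statistic. Embryo was the block because, per the labels, each pair of teeth came from the same embryo. As a check, the correlation between the 2 teeth of a pair, after each group's mean was taken off, was 0.319, 0.208, -0.0389, 0.170 and 0.313 (embryos 1, 2, 3, 4 and 6). No library was a copy of another in its group (chi-square per degree of freedom 4.52 to 18.2). Differences within embryos used log2 CPM with a prior count of 2. Python 3.11.15, limma 3.58.1 and DESeq2 1.42.0 were also used. The fit was also run on simulated data, of which no outcome is given here and on which no result rests.

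The genes named are the 10 members, the genes past the threshold in 20 lists of macrophage genes and other cell type markers (at most 5 per direction in each), defining markers, and the 10 genes most correlated with the members. Fcer1g, Ctss, Lyz2, Spi1, Csf1, Cx3cl1, Il1b, Cd86, Tnf, Flt1, Flt4, Reln, Itga2b, Epor, Siglec1, Cd14, Lcp1, Coro1a, Kit, Tpsb2, Ppbp, Gp1bb and the overlapping gene Hmgxb3 were named outside that rule, after their values were seen. The members and lists were chosen with earlier results of these data known. Alternatives were other normalizations, filters and tools, the fit without the block, and leaving out each embryo.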

Additional observations from a re-analysis of the deposited data

Results flagged for a closer look

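In 68 groups of 5 libraries (the 10 members, their sum and the called genes of the lists, in control and in IGF1 teeth), 5 had a library far from the other 4, by its gap to the nearest library over the whole range, where about 3.4 would by chance (5% of groups). Among the 22 groups of the members and their sum there were 3. C1qa in the IGF1 tooth of embryo 1 was at 3.46 CPM against 0.428 to 1.19 in the others (ratio 0.749). Tyrobp in the control tooth of embryo 6 was at 4.24 CPM against 5.67 to 5.96 (ratio 0.833). Mrc1 in the control tooth of embryo 2 was at 20.6 CPM against 11.3 to 13.1 (ratio 0.815). Bhlhe41 in the IGF1 tooth of embryo 2 was at 13.8 CPM against 4.28 to 6.91 (ratio 0.724), and Lgmn in the control tooth of embryo 2 was at 62.7 CPM against 78.5 to 84.0 (ratio 0.741).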

How the results depend on the processing

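Without the replicate block, 887 genes were called in place of 1666, 7 list genes in place of 23 (all 7 among the 23) and 0 members in place of 1. In that edgeR fit 1 of 8 members had an unadjusted p under 0.05. It was Mrc1 (log2 fold change -0.40, adjusted p = 0.224) and not Csf1r (-0.43, adjusted p = 0.303). C1qc was at 0.00382. DESeq2's Wald test also called 0 members (1 at an unadjusted p under 0.05; Csf1r at -0.44). Leaving out each embryo gave 986 (without embryo 4) to 1602 genes, with 994 without embryo 6, 13 (without embryo 4) to 17 list genes, with 14 without embryo 6, and 0 (without embryo 3, 4 or 6) to 1 members, fewer embryos being part of each such fit. Over these fits Csf1r ran from -0.51 to -0.39, C1qb from -0.37 to 0.0286 and C1qc from -0.15 to 0.14 (both above 0 without embryo 2), Cx3cr1 from -0.30 to 0.13 (0.13 without embryo 2 and 0.11 without embryo 4) and Adgre1 from -0.12 (without embryo 4) to 0.17. Tyrobp ran from -0.37 (without embryo 6) to -0.12 (without embryo 3), Cd68 from 0.16 (without embryo 6) to 0.37 and Mrc1 from -0.48 to -0.16 (without embryo 2). The mean log2 ratio of the summed level ran from -0.26 to -0.13. Only Csf1r had a call to lose, and it kept that call in 7 of 12 refits. Counted over all tested members, in 85 of 96 refits a member kept its sign and its side of the threshold, in 5 Csf1r lost its call and in 6 a sign turned. The cause was not tested. C1qa and Fcgr3 had too few counts for the fit.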
